A study of Mus musculus with 18 samples.

Results

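The genes described here carry glucose into the cell, break it down to pyruvate and lactate, pass pyruvate to the mitochondrion, or store glucose as glycogen. They were taken by gene symbol from a list of 38, and all 38 were among the 20295 genes of the count table and all 38 passed the filter on low counts, which 12156 genes passed in all. Their roles gave 8 groups of genes: glucose transporters, hexokinases, upper glycolysis, enzymes of fructose-2,6-bisphosphate, lower glycolysis, lactate dehydrogenases with monocarboxylate transporters, pyruvate dehydrogenase, and glycogen.

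RNA-seq had been performed on BAT-LgT cells, mouse brown preadipocytes made immortal with the SV40 large T antigen and differentiated to brown adipocytes in culture. All 6 groups were of this 1 line on day 7, and each held 3 samples, which the methods describe as independent experiments. Vehicle was DMSO, ISO was the β-adrenergic agonist isoproterenol at 100 nM, and SR-3420 was a ligand of ABHD5, the co-activator of the triglyceride lipase ATGL, each for 3 h. In 3 further groups, named Lipase Inh. + and the treatment, inhibitors of ATGL (Atglistatin) and HSL (CAY10499) were added 1 h before DMSO, ISO or SR-3420. ISO acts through receptors and cAMP and thereby switches on lipolysis, whereas SR-3420 acts on lipolysis directly, so the comparisons address how far each gene followed lipolysis. The dose of SR-3420 was 10 µM in the labels and differs in the text of the study, which was not settled here.

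Of 18 libraries, 17 held 10310447 to 21205032 counts, and Lipase Inh. + SR-3420 replicate 2 held 4263755, of which 18.3% came from a single gene, Lars2. Among markers of brown adipocytes, Adipoq, Fabp4, Plin1, Pparg, Cebpa, Cidea, Ebf2, Prdm16 and Ucp1 passed the filter and Dio2 did not. Over all samples Adipoq was at 2415 to 4026 CPM and Cidea at 38.6 to 77.1, while Ucp1 was at 1.39 to 789 with a median of 5.79. Of 4 endothelial markers 0 passed. Of 4 macrophage markers 1 passed, Cd68, which was at 1.96 to 5.88 CPM over all samples and rose with ISO (0.74), while Emr1, Ptprc and Csf1r did not pass. Of 6 muscle markers 2 passed, Myod1 and Acta1, of which 1 rose with ISO, and the 6 summed to 0.867 to 2.63 CPM. All 6 markers of preadipocytes or fibroblasts passed, among them Pdgfra and Col3a1, summing to 153 to 254 CPM, and 2 of them rose with ISO and 2 with SR-3420. The part of such cells in the results was not tested. These being bulk samples, fewer cells of a type and less RNA per cell cannot be told apart.

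Glucose enters adipocytes through the transporters GLUT1 (Slc2a1) and the insulin-responsive GLUT4 (Slc2a4), is trapped by hexokinase and is split by glycolysis into pyruvate. Pyruvate either enters the mitochondrion through pyruvate dehydrogenase or is reduced to lactate, which leaves the cell through monocarboxylate transporters. Activated brown fat is known as a tissue of high glucose uptake, and it also holds a glycogen store. In the text, values are CPM, a gene's count scaled to library size after TMM correction, listed for replicates 1, 2 and 3. Fold changes and interactions are on the log2 scale with their standard error (SE), also where only values stand in brackets, and rose, fell, higher and lower are used of changes with an adjusted p of at most 0.05 by the quasi-likelihood test of edgeR over all 12156 genes.

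The summed level of the 38 genes was highest in the ISO groups. It was 11136, 9704 and 10047 CPM with Vehicle, 15136, 16062 and 15054 with ISO and 12197, 12542 and 12680.3 with SR-3420. With the lipase inhibitors it was 8495, 9199 and 8158 CPM with Vehicle, 16346, 16182 and 16838 with ISO and 9171, 8623 and 9323 with SR-3420. Thus every ISO sample, with or without inhibitors, lay above all samples of the other 4 groups, and the Lipase Inh. + SR-3420 samples overlapped those of Lipase Inh. + Vehicle. With total counts in place of TMM factors the mean went from 11384 with Vehicle to 13785 with ISO and 15348 with Lipase Inh. + ISO. Without Aldoa and Pkm, which were among the most abundant of the genes, the means after TMM scaling were 7562 ± 524 CPM with Vehicle, 11755 ± 471 with ISO and 11857 ± 359 with Lipase Inh. + ISO (SD, n = 3).

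**Figure D1:**
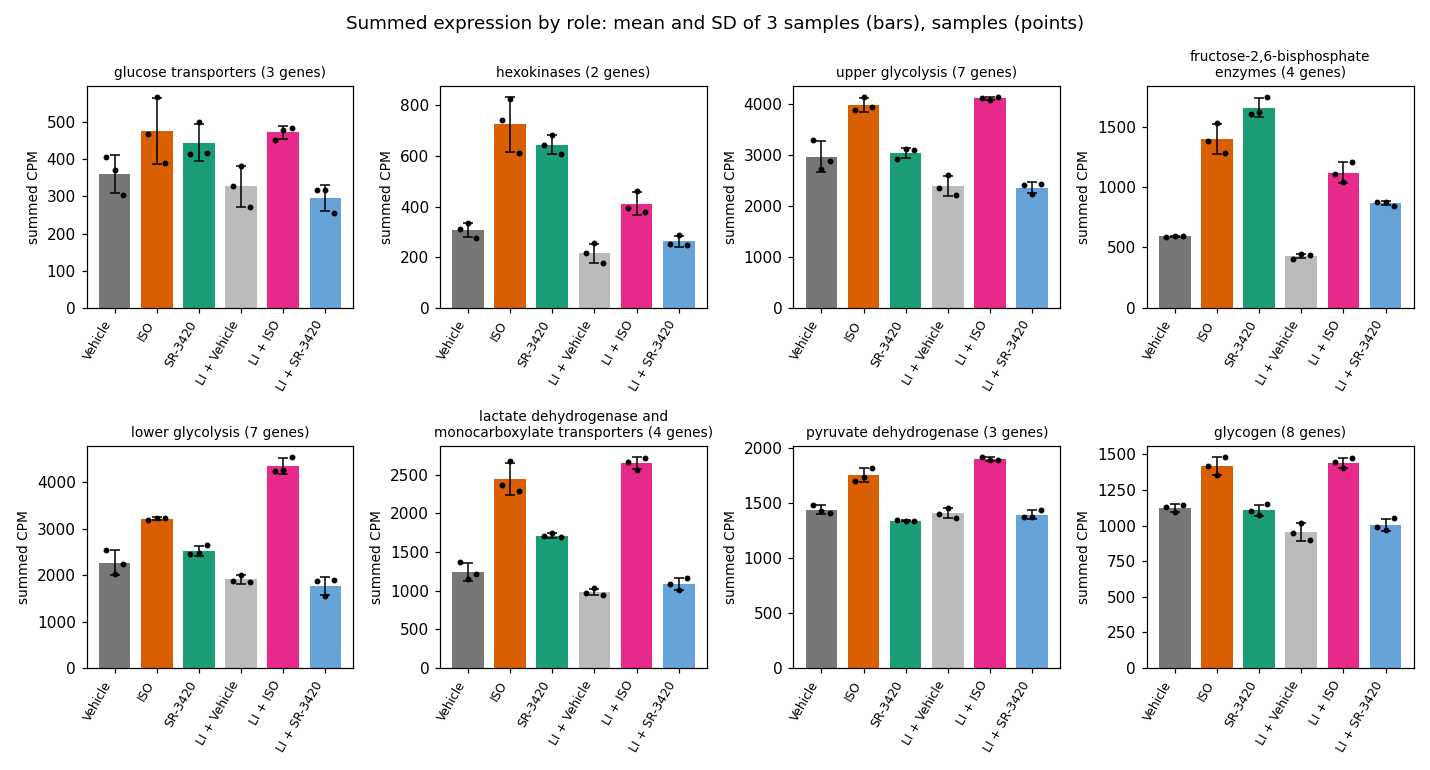
Summed expression of each role in CPM (y axis) in the 6 groups (x axis; LI, lipase inhibitors), with bars for the mean of 3 samples, error bars for the SD and points for samples. Lower glycolysis stood highest in Lipase Inh. + ISO, at 4352 ± 166 CPM against 3217 ± 29.6 with ISO, while hexokinases stood highest in ISO, at 725 ± 108 against 412 ± 44.2.

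With ISO against Vehicle, 25 of the 38 genes rose and 5 fell, where 26.8% of all genes tested rose and 25% fell. The median log2 fold change was 0.42 over the 38 genes and -0.02 over all genes. This split depended on scaling. With total counts in place of TMM factors the median of all genes shifted by -0.31 (log2), and 14 of the 38 rose and 8 fell, so changes with ISO are relative to the scaling, and values on total counts are given where a call was lost. Past a log2 fold change of 1, 7 genes rose, namely Slc2a1, Hk2, Pfkfb3, Gapdh, Slc16a1, Slc16a3 and Pygl, and 1 fell, Pfkfb1 (5.03% and 4.07% of all genes).

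SR-3420 raised 11 of the genes and lowered 6, beside 26% and 25.4% of all genes, so that the share that rose was near the background. With total counts, which shifted the median gene by -0.16, the counts were 8 and 9. Past a log2 fold change of 1 they were 5 and 1, beside 3.97% and 2.37%. The 11 were Slc2a1, Hk1, Hk2, Pfkp, Pfkfb3, Slc16a1, Slc16a3, Pgm1, Ugp2, Gys1 and Gbe1. The 6 that fell were Pfkfb1, Pfkfb2, Ldhb, Pdha1, Pygb and Ppp1r3c, and the calls of Pfkfb2, Pdha1 and Pygb were each lost with some single sample left out. Of the 7 genes of lower glycolysis, 0 passed this test by edgeR in either direction, while 2 were higher at an unadjusted p under 0.05. Without Vehicle replicate 1, 3 of the 7 rose, namely Pkm (0.27, adjusted p 0.0089), Gapdh (0.43, adjusted p 0.0106) and Pgam1 (0.22, adjusted p 0.0279), as did Ldha outside this role (0.24, adjusted p 0.0484).

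ISO and SR-3420 were also compared directly. Of the 38 genes, 21 were higher with ISO than with SR-3420 and 3 were lower, beside 15.8% and 13.9% of all genes. On total counts, with a shift of -0.15, the counts were 13 and 6. The 3 that were lower with ISO were Pfkfb2, Pfkfb3 and Pygb, with calls that were lost with some single sample left out, so that 1 passed without ISO replicate 1 and 0 without SR-3420 replicate 3.

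The inhibitors by themselves raised none of the 38 genes and lowered 10, while they raised 0.485% and lowered 0.428% of all genes, or 59 and 52. At an unadjusted p under 0.05 the numbers were 0 and 19, and DESeq2 called 0 and 12. The 10 were Slc2a1, Hk2, Tpi1, Pfkfb3, Gapdh, Pgam1, Ldha, Slc16a3, Pgm2 and Gys1, with log2 fold changes between -0.89 and -0.32. Only 5 of them, Pfkfb3, Gapdh, Slc16a3, Pgm2 and Gys1, passed the test with each of the 6 samples left out in turn. The count was 5 without Vehicle replicate 1, without Lipase Inh. + Vehicle replicate 1 or without Lipase Inh. + Vehicle replicate 3, and 6 on total counts.

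With ISO on top of the inhibitors, 27 genes rose and 6 fell against Lipase Inh. + Vehicle (29.4% and 28.3% of all genes), and 15 of the 27 were past a log2 fold change of 1, as were 2 of the 6 (5.43% and 7.63% of all genes). SR-3420 on top of the inhibitors raised 2 genes, Pfkfb3 and Slc16a1, and lowered none (2.99% and 1.36%). At an unadjusted p under 0.05, 5 were higher and 1 lower, and DESeq2 called 2 and 0. The call for Slc16a1 was lost, leaving 1, when any of the 3 Lipase Inh. + SR-3420 samples, the library with few counts among them, or Lipase Inh. + Vehicle replicate 1 or 3 was left out, and 4 genes rose without Lipase Inh. + Vehicle replicate 2. The difference between the effects with and without inhibitors was tested as an interaction. For ISO it was positive in 15 genes and negative in 4, beside 14.9% and 16.6% of all genes, and past a difference of 1 in 3 and 2, beside 2.18% and 4.71%. For SR-3420 it was positive in 2 and negative in 9, beside 12.5% and 14.8%, and past a difference of 1 in 1 and 0, beside 1.4% and 2.42%. All 9 were among the 11 genes that SR-3420 had raised. The interaction contains that rise with its sign reversed, from the same samples, so this overlap is no separate result. Without the library with few counts, 2 were positive and 8 negative, and 5 were positive without Lipase Inh. + Vehicle replicate 2. Single samples left out ended the calls for Gpi1, Aldoa, Eno1, Pdha1 and Ugp2 (ISO) and for Pfkp and Pgm1 (SR-3420).

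The groups with inhibitors were also set against the same stimulus without them, comparisons added after the data were seen and sharing samples with those above. Lipase Inh. + ISO exceeded ISO in 12 genes and was lower in 8 (21% and 21.6% of all genes). Lipase Inh. + SR-3420 exceeded SR-3420 in 2 genes, Pfkfb1 and Ppp1r3c, and was lower in 20 (18.9% and 20.9%), without the library with few counts also 2 and 20, and 4 were higher without Lipase Inh. + SR-3420 replicate 3.

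**Figure D2:**
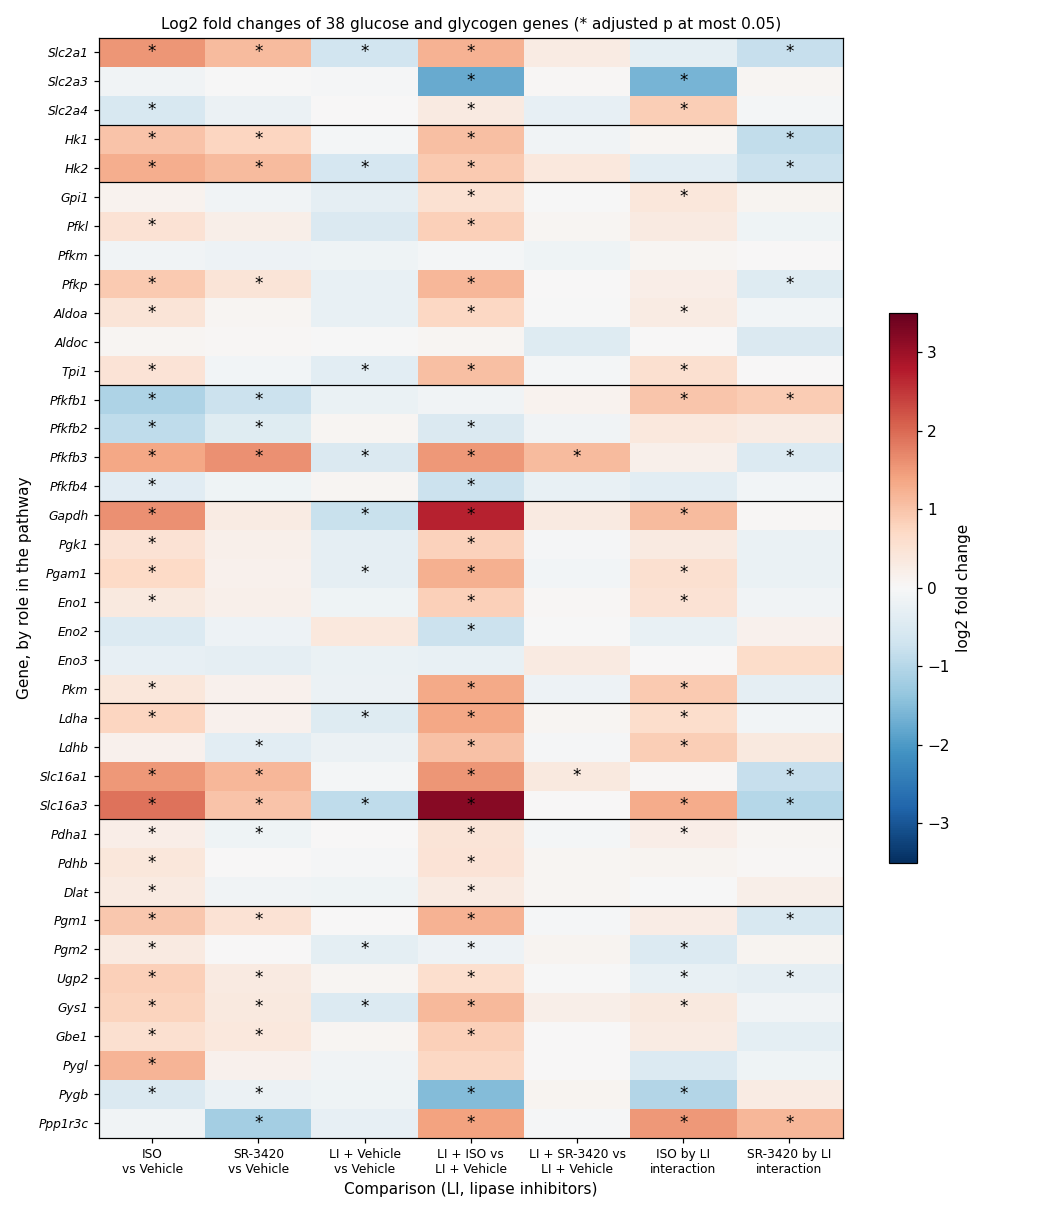
Log2 fold changes (colour) of the 38 genes (rows, by role, lines between roles) in 5 comparisons and 2 interactions (columns; LI, lipase inhibitors), with an asterisk where the adjusted p was at most 0.05. Red cells prevail in the columns for ISO with and without inhibitors, and the column for SR-3420 with inhibitors holds 2 asterisks.

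**Figure D3:**
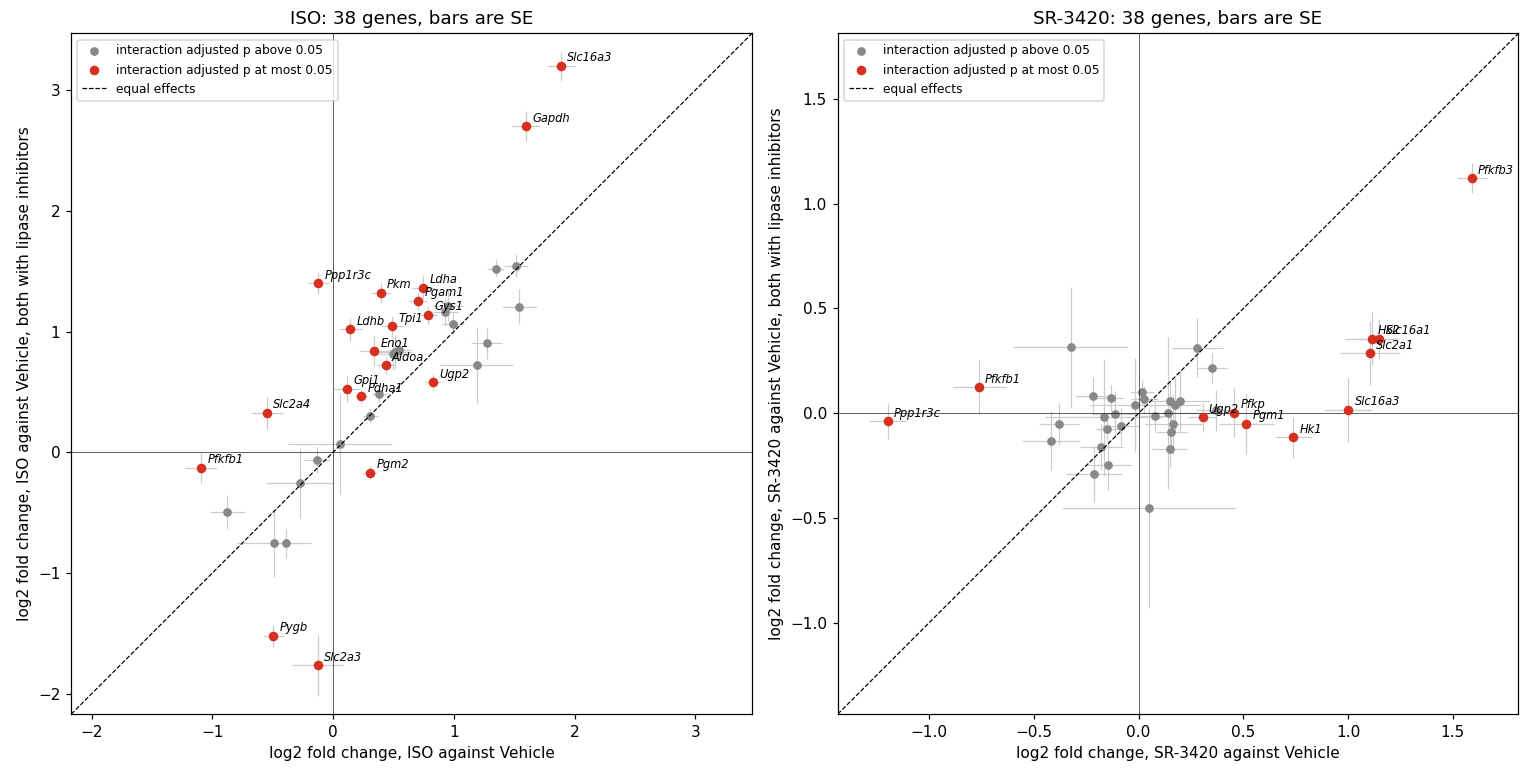
Log2 fold change without inhibitors (x axis) against that with inhibitors (y axis) of the 38 genes, for ISO (left) and SR-3420 (right), with SE bars, red points where the interaction passed the test, and a dashed line of equal effects. For ISO, Slc16a3, Gapdh and Ppp1r3c lay above the line and Pygb and Slc2a3 below it, while for SR-3420 most points lay near 0 on the y axis and Pfkfb3 at 1.12.

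Promoters of the genes were read from RefSeq (build GRCm38.p6), as 250 bases before and 50 after each gene start, to set out the sequence before these genes. Of the 38 genes, 36 had 1 or more promoters in that table, 54 in all. Slc2a3 and Slc2a4 had none there. The letters ACGTG, the core of the element bound by hypoxia-inducible factors, were found on either strand in 26 of the 54 promoters (48.1%) and in 19.6% of all 32851 promoters. The genes' promoters held 59.8% G and C and 17 CG pairs on average, against 53.8% and 12.4 in all promoters, and ACGTG itself holds a CG pair. CACGTG, the E-box, which contains ACGTG, was found in 11.1% and 7.15% of promoters. TGACGTCA, the full cAMP response element, was found in 1.85%, that is in 1 promoter of Ldha, and in 1.79% of all. Its shorter form TGACG, which it contains, was in 25.9% and 20.8%, and TGATGNAA, a form of the element bound by ATF4, was in 0 of the 54 and in 3.97% of all. Of the 22 genes with ACGTG, 17 rose and 2 fell with ISO, and of the 14 without it 8 rose and 2 fell (26.8% and 25% of all genes). With ISO and inhibitors, 16 of the 22 rose and 3 fell, and 10 of the 14 rose and 2 fell (29.4% and 28.3%). The interaction of ISO with the inhibitors was positive in 7 of the 22 and in 7 of the 14 (14.9%). It was negative in 3 and 0 (16.6%). With SR-3420, 8 of the 22 rose and 3 fell, and 3 of the 14 rose and 3 fell (26% and 25.4%). Its interaction was positive in 1 and 1 and negative in 8 and 1 (12.5% and 14.8%). The inhibitors by themselves lowered 8 and 2 and raised 0 and 0 (0.428% and 0.485%). Lipase Inh. + SR-3420 was lower than SR-3420 in 15 and 5 and higher in 1 and 1 (20.9% and 18.9%). Whether the groups of promoters differ was not tested.

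Of the 10 genes that were lower with the inhibitors by themselves, the promoters of Slc2a1, Hk2, Ldha and Slc16a3 are shown as examples that hold ACGTG. That of Gys1 is shown as one that does not, as is also the case for Tpi1. Ppp1r3c is shown for its response to SR-3420 and to ISO with inhibitors. They were chosen with their values and matches known. Capitals mark ACGTG or its reverse complement, with overlapping copies run together.
Slc2a1, chr4:119108495-119108794, + strand: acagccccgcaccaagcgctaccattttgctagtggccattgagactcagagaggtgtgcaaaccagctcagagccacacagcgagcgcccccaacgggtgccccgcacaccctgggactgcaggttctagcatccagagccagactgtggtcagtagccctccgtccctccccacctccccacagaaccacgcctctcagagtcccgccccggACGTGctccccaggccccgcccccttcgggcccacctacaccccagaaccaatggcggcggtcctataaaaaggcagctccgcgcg
Hk2, chr6:82774405-82774704, - strand: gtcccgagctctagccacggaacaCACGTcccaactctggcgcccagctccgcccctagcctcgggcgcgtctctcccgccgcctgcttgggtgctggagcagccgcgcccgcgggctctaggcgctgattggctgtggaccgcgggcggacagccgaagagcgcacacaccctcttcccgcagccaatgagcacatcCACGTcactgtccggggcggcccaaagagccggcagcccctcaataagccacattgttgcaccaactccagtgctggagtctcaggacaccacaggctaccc
Ldha, chr7:46845554-46845853, + strand: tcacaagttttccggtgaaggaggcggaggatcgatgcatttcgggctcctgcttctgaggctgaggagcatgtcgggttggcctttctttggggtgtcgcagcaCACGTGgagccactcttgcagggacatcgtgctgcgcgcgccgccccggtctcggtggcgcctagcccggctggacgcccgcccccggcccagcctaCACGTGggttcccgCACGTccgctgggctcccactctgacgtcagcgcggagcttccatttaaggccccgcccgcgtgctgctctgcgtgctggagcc
Slc16a3, chr11:120948817-120949116, + strand: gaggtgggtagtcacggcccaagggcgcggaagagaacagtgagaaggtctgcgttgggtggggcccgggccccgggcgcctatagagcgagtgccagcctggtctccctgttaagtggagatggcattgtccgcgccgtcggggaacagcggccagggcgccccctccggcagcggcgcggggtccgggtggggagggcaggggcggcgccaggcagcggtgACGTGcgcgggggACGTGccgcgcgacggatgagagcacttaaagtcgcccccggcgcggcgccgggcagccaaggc
Gys1, chr7:45434589-45434888, + strand: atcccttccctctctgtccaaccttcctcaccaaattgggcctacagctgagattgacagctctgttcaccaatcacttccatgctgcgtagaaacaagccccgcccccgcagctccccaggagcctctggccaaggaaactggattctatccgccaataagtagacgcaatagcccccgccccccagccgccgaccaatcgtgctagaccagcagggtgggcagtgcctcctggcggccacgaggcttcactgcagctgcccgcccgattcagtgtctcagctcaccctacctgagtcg
Ppp1r3c, chr19:36736555-36736854, - strand: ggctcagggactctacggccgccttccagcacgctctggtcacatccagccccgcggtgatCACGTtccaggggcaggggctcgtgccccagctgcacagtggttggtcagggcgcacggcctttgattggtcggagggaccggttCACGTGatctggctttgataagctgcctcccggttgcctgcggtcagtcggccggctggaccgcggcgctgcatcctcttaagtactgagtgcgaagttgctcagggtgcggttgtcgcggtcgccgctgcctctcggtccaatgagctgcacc
The capitals begin 36 bases before the start in Slc2a1, 226 and 52 in Hk2, 145, 48 and 34 in Ldha, 27 and 14 in Slc16a3, and 189 and 104 in Ppp1r3c. A match of letters describes the sequence and does not show binding.

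Among the glucose transporters, Slc2a1 and Slc2a4 moved in opposite directions with ISO. Without inhibitors, Slc2a1 (GLUT1, mm9 chr4:118781350-118809934) was at 111, 99.8 and 96.4 CPM with Vehicle, 292, 392 and 209 with ISO and 215, 258 and 188 with SR-3420. With inhibitors, Slc2a1 was at 67.4, 63.4 and 62.1 with Vehicle, 143, 148 and 154 with ISO and 80.6, 76.5 and 77.5 with SR-3420. All ISO and SR-3420 samples lay above Vehicle, and all 3 Lipase Inh. + Vehicle samples lay below it. Slc2a1 rose with ISO by 1.54 ± 0.14 (adjusted p 1.10e-08) and with SR-3420 by 1.11 ± 0.14 (adjusted p 1.62e-06). With inhibitors the rise with ISO was 1.21 ± 0.15 (adjusted p 4.02e-07), from a lower start, and the difference from the rise without them did not pass the test (-0.34 ± 0.20, adjusted p 0.225), though it did without ISO replicate 3 (-0.53, adjusted p 0.013). For SR-3420 it did (-0.82 ± 0.21, adjusted p 0.00553), and the value of SR-3420 with inhibitors was 0.29 ± 0.15 (adjusted p 0.388).

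Without inhibitors, Slc2a4 (GLUT4, chr11:69755788-69761692) was at 289.6, 264 and 203 CPM with Vehicle, 173, 169.5 and 176 with ISO and 194, 236 and 224 with SR-3420. With inhibitors, Slc2a4 was at 253, 314 and 205 with Vehicle, 306, 330.3 and 329.9 with ISO and 228, 234 and 173 with SR-3420. The ISO samples were close to each other and below all Vehicle samples, and Slc2a4 fell (-0.55 ± 0.14, adjusted p 0.00175). With inhibitors ISO samples overlapped Vehicle samples, and Slc2a4 was higher by 0.33 ± 0.13 (adjusted p 0.0412), a call that was lost on total counts (0.10, adjusted p 0.524) and without Lipase Inh. + Vehicle replicate 1 or 3 or Lipase Inh. + ISO replicate 1 or 2 or 3 (0.19 to 0.36, adjusted p 0.0507 to 0.253). The interaction was 0.87 ± 0.19 (adjusted p 0.00117). Per length of transcript, the ratio of Slc2a1 to Slc2a4 was 0.452 ± 0.0612 with Vehicle, 1.90 ± 0.622 with ISO and 1.11 ± 0.165 with SR-3420 (SD, n = 3). It was 0.282 ± 0.0564, 0.505 ± 0.0116 and 0.413 ± 0.0702 in the same treatments with inhibitors. The mRNA of Slc2a1 thus exceeded that of Slc2a4 per length in all ISO samples and not with ISO and inhibitors. With SR-3420 the ratio was 1.22, 1.20 and 0.923 in replicates 1, 2 and 3.

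Without inhibitors, Slc2a3 (GLUT3, a high-affinity transporter best known from neurons) was at 5.43, 6.96 and 4.68 CPM with Vehicle, 4.79, 5.96 and 4.94 with ISO and 4.78, 6.77 and 5.40 with SR-3420. With inhibitors, Slc2a3 was at 6.12, 4.28 and 6.01 with Vehicle, 2.25, 1.19 and 1.47 with ISO and 6.85, 6.13 and 4.45 with SR-3420. It was low in all groups, and the 3 Lipase Inh. + ISO samples lay below the other 15. Slc2a3 fell with ISO and inhibitors (-1.77 ± 0.25, adjusted p 3.70e-06), the value without them was -0.13 ± 0.22 (adjusted p 0.655), and the interaction was -1.64 ± 0.34 (adjusted p 6.94e-04).

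Both hexokinases, which trap glucose as glucose 6-phosphate, rose with ISO and with SR-3420, beside 26.8% and 26% of all genes. Without inhibitors, Hk2 (chr6:82675021-82724448) was at 273, 294 and 234 CPM with Vehicle, 658, 739 and 538 with ISO and 576, 612 and 543 with SR-3420. With inhibitors, Hk2 was at 177, 213 and 142 with Vehicle, 320.4, 372 and 299.5 with ISO and 215, 251 and 216 with SR-3420. The stimulated samples lay above all Vehicle samples in both settings, although the Lipase Inh. + SR-3420 samples passed those of Lipase Inh. + Vehicle narrowly. Hk2 rose by 1.27 ± 0.13 with ISO (adjusted p 2.55e-08), by 1.11 ± 0.13 with SR-3420 (adjusted p 2.40e-07) and by 0.90 ± 0.13 with ISO and inhibitors (adjusted p 2.84e-06). With SR-3420 and inhibitors the value was 0.36 ± 0.13 (adjusted p 0.141). Hk2 was lower with Lipase Inh. + ISO than with ISO (-0.96 ± 0.13, adjusted p 1.92e-06). It was also lower with the inhibitors by themselves (-0.59, adjusted p 0.0185), a call lost with some single samples left out. The interaction with ISO did not pass the test (-0.37, adjusted p 0.119). It did without ISO replicate 3 (-0.48, adjusted p 0.0418) or Lipase Inh. + Vehicle replicate 3 (-0.51, adjusted p 0.028). For SR-3420 the interaction passed (-0.76).

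Without inhibitors, Hk1 was at 37, 41.2 and 43.5 CPM with Vehicle, 84, 85.6 and 72.1 with ISO and 68.1, 69.4 and 65.2 with SR-3420. With inhibitors, Hk1 was at 38.8, 41.6 and 36.1 with Vehicle, 75.8, 89.3 and 78.1 with ISO and 37.8, 37.8 and 32.6 with SR-3420. The rise with ISO was close in both settings, 0.99 ± 0.09 (adjusted p 5.98e-09) and 1.06 ± 0.09 (adjusted p 1.32e-09), with an interaction of 0.07 ± 0.13 (95% interval -0.19 to 0.33). The rise with SR-3420 was 0.74 ± 0.09 (adjusted p 6.14e-07) and was smaller with inhibitors (-0.85 ± 0.13, adjusted p 5.15e-05). Per length, Hk2 exceeded Hk1 by a ratio of 4.93 ± 0.812 with Vehicle, 5.93 ± 0.441 with ISO and 3.03 ± 0.156 with Lipase Inh. + ISO.

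In upper glycolysis, 4 of 7 genes rose with ISO and 1, Pfkp, with SR-3420, beside 26.8% and 26% of all genes. On total counts 1 rose with ISO, Pfkp, and 1 fell, Pfkm. Aldoa, aldolase A, which splits fructose 1,6-bisphosphate, had the highest level per length of this role, 1147 ± 57.1 RPKM (CPM per kilobase of counted length) with Vehicle against 421 ± 68.8 for Tpi1 and 67.3 ± 13.5 for Pfkl (SD, n = 3). Without inhibitors, Aldoa was at 1759.8, 1593 and 1676 CPM with Vehicle, 2207, 2326 and 2277 with ISO and 1708, 1819.5 and 1781 with SR-3420. With inhibitors, Aldoa was at 1385, 1552 and 1254 with Vehicle, 2317, 2294 and 2285 with ISO and 1402, 1335 and 1408 with SR-3420. ISO samples did not overlap Vehicle samples in either setting. Aldoa rose with ISO by 0.44 ± 0.07 (adjusted p 2.21e-05) and with inhibitors by 0.72 ± 0.07 (adjusted p 1.73e-08), the first of which was lost on total counts (0.13, adjusted p 0.233).

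Without inhibitors, Tpi1, the triose phosphate isomerase, was at 781, 566 and 645 CPM with Vehicle, 897, 954 and 949 with ISO and 605, 614 and 659 with SR-3420. With inhibitors, Tpi1 was at 495, 535 and 499.5 with Vehicle, 1048, 1027 and 1077 with ISO and 502, 439 and 520.0 with SR-3420. Only the ISO groups stood clear of their Vehicle groups. The rise was 0.49 ± 0.09 with ISO (adjusted p 6.19e-05; 0.18 and adjusted p 0.143 on total counts) and 1.04 ± 0.09 with ISO and inhibitors (adjusted p 1.24e-09), with an interaction of 0.55 ± 0.12 (adjusted p 0.00139). Tpi1 overlaps Spsb2 on the other strand, and use of strand in the counting was not stated.

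Phosphofructokinase catalyses the committed step of glycolysis, and its 3 genes differed. Without inhibitors, Pfkp, the platelet form, was at 31, 30.7 and 27.4 CPM with Vehicle, 53.9, 64.1 and 51.9 with ISO and 39.9, 42.4 and 40.4 with SR-3420. With inhibitors, Pfkp was at 23, 25.2 and 26.2 with Vehicle, 52, 55.8 and 58.6 with ISO and 20.2, 28.8 and 27 with SR-3420. ISO and SR-3420 samples lay above Vehicle samples, and with inhibitors only those of ISO did. Pfkp rose with ISO by 0.93 ± 0.10 (adjusted p 1.73e-07), with SR-3420 by 0.46 ± 0.11 (adjusted p 0.00101) and with ISO and inhibitors by 1.16 ± 0.11 (adjusted p 4.52e-09). Pfkl, the liver form, was more abundant, at 250.3 ± 50.2 CPM with Vehicle, 357 ± 61.6 with ISO and 315 ± 13.3 with Lipase Inh. + ISO (SD, n = 3), and rose with ISO by 0.51 ± 0.14 (adjusted p 0.004; 0.20 and adjusted p 0.22 on total counts). Pfkm, the muscle form, was at 24.6 to 31.1 CPM as a group mean and passed the test in none of the 8 comparisons. The ratio of Pfkp to Pfkl per length ran from 0.120 ± 0.0168 with Vehicle to 0.174 ± 0.00300 with Lipase Inh. + ISO. Pfkp and Pfkm overlap Pitrm1 and Senp1 on the other strand.

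Gpi1, which converts glucose 6-phosphate to fructose 6-phosphate, was at 312 ± 72.2 CPM with Vehicle, 339 ± 6.29 with ISO, 253 ± 4.49 with Lipase Inh. + Vehicle and 364 ± 4.91 with Lipase Inh. + ISO. When inhibitors were present, Gpi1 rose with ISO (0.53 ± 0.11, adjusted p 2.54e-04), and the value without them was 0.12 ± 0.11 (adjusted p 0.373). Gpi1 also rose with ISO by itself without Vehicle replicate 1 (0.32, adjusted p 0.00448), where the interaction went from 0.41 to 0.21 (adjusted p 0.178), and the call of the interaction was lost in 10 of the left-out fits. Aldoc, the brain aldolase, was low, at 1.01 to 1.47 CPM, and passed no test.

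The 4 enzymes that make and break fructose-2,6-bisphosphate, the main activator of phosphofructokinase, split into 1 that rose and 3 that fell with ISO (26.8% and 25% of all genes). Without inhibitors, Pfkfb3 (chr2:11393058-11475556), the form with the highest kinase activity, was at 533, 535 and 545 CPM with Vehicle, 1351, 1494 and 1253 with ISO and 1567, 1582 and 1709 with SR-3420. With inhibitors, Pfkfb3 was at 359.5, 386 and 384 with Vehicle, 1066, 1001 and 1173 with ISO and 828, 828 and 801 with SR-3420. For Pfkfb3, all SR-3420 samples lay above all ISO samples. The rise was 1.35 ± 0.07 with ISO (adjusted p 1.23e-12) and 1.59 ± 0.07 with SR-3420 (adjusted p 1.89e-13), and Pfkfb3 was lower with ISO than with SR-3420 (-0.25 ± 0.07, adjusted p 0.0112), a call lost without ISO replicate 3 or SR-3420 replicate 3 (-0.19 and -0.21, adjusted p 0.0632 in both). With inhibitors Pfkfb3 still rose with SR-3420, by 1.12 ± 0.07 (adjusted p 4.57e-09), a smaller rise than without them (-0.47 ± 0.10, adjusted p 0.00124). The rise with ISO was 1.52 ± 0.07 with inhibitors (adjusted p 1.08e-13), and the interaction was 0.17 ± 0.10 (95% interval -0.03 to 0.38).

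Without inhibitors, Pfkfb1, the form of liver and muscle, was at 23.8, 23.9 and 24.1 CPM with Vehicle, 11.2, 11.4 and 11 with ISO and 14.3, 14.7 and 13.4 with SR-3420. With inhibitors, Pfkfb1 was at 16.8, 23.2 and 20.9 with Vehicle, 20.6, 17.2 and 17.8 with ISO and 22.8, 27.4 and 18.4 with SR-3420. All ISO and SR-3420 samples lay below Vehicle, and with inhibitors the groups overlapped. It fell with ISO (-1.09 ± 0.13, adjusted p 4.71e-07) and with SR-3420 (-0.76 ± 0.13, adjusted p 3.48e-05), and both effects differed with inhibitors (0.96 ± 0.18, adjusted p 3.21e-04 for ISO and 0.89 ± 0.18, adjusted p 9.09e-04 for SR-3420). Per length, the ratio of Pfkfb3 to Pfkfb1 was 8.39 ± 0.0476 with Vehicle, 45.5 ± 3.22 with ISO, 42.9 ± 4.21 with SR-3420 and 21.9 ± 2.62 with Lipase Inh. + ISO (SD, n = 3). Pfkfb2 and Pfkfb4 were low, at 7.43 to 14.2 and 10.5 to 17.7 CPM as group means. Pfkfb2 fell with ISO (-0.88 ± 0.15, adjusted p 3.20e-05) and with SR-3420 (-0.42 ± 0.14, adjusted p 0.0148), a call lost without SR-3420 replicate 1 (-0.36, adjusted p 0.0667) or Vehicle replicate 2 (-0.32, adjusted p 0.09). Pfkfb2 overlaps Yod1 on the other strand. Pfkfb4 fell with ISO (-0.39 ± 0.12, adjusted p 0.00898) and with ISO and inhibitors (-0.75 ± 0.12, adjusted p 1.39e-05), the first call being lost without Vehicle replicate 1 (-0.30, adjusted p 0.0641) or ISO replicate 3 (-0.30, adjusted p 0.0541).

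In lower glycolysis, which makes ATP and NADH on the way to pyruvate, 5 of 7 genes rose with ISO, beside 26.8% of all genes. With SR-3420, 0 passed the test when all samples were used (26% of all genes rose and 25.4% fell). The interaction of ISO with the inhibitors was positive in 4 of the 7, beside 14.9% of all genes. For Eno1 that call was lost with each of 6 single samples left out. On total counts, 2 of the 5, Gapdh and Pgam1, rose with ISO. Without inhibitors, Pkm, pyruvate kinase, was at 1225, 963 and 985 CPM with Vehicle, 1384, 1441 and 1351 with ISO and 1136, 1164 and 1215 with SR-3420. With inhibitors, Pkm was at 909, 972 and 884 with Vehicle, 2227, 2359 and 2313 with ISO and 899, 723 and 832 with SR-3420. The 3 Lipase Inh. + ISO samples stood above the other 15. Pkm rose by 0.40 ± 0.09 with ISO (adjusted p 5.03e-04; 0.09 and adjusted p 0.502 on total counts) and by 1.32 ± 0.09 with ISO and inhibitors (adjusted p 2.48e-11), with an interaction of 0.92 ± 0.12 (adjusted p 3.94e-06). The table counts Pkm as 1 gene, so its M1 and M2 forms were not told apart.

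Without inhibitors, Gapdh was at 25.4, 19.4 and 19.8 CPM with Vehicle, 62, 73.5 and 61.2 with ISO and 23.7, 32.2 and 23.4 with SR-3420. With inhibitors, Gapdh was at 12.2, 13.3 and 12.3 with Vehicle, 84.2, 85 and 76.2 with ISO and 15.6, 16.3 and 15.3 with SR-3420. Both ISO groups stood clear of all others. Gapdh rose by 1.60 ± 0.12 with ISO (adjusted p 2.70e-10) and 2.70 ± 0.12 with ISO and inhibitors (adjusted p 6.66e-14), and the interaction was 1.1 ± 0.17 (adjusted p 3.13e-05). With SR-3420 the value was 0.28 ± 0.12 (adjusted p 0.0585), and Gapdh passed the test without Vehicle replicate 1 (0.43, adjusted p 0.0106) or SR-3420 replicate 1 (0.35, adjusted p 0.0372) or SR-3420 replicate 3 (0.37, adjusted p 0.0297). These levels are uncertain. Gapdh stood far below its neighbours in the pathway such as Pgk1, and 88.2% of its transcript had a copy of at least 98% identity at 31 other places of the mm9 genome, to which reads could map as well. The same share was 95.7% for Pgk1, 94.7% for Pgam1, 85.6% for Eno1 and 65.1% for Gpi1, and at most 5.9% for the other 33 genes. At a lower identity of at least 90%, more of these 33 had copies. The share was then 99.9% for Aldoa and Pkm, 98.5% for Ldhb, 97.6% for Pdhb, 84.8% for Ldha and 83% for Tpi1. It was 46.5% for Pygb and at most 21.9% for the rest. Whether reads were lost to such copies was not tested.

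Without inhibitors, Pgam1, phosphoglycerate mutase, was at 566, 484 and 517 CPM with Vehicle, 855, 855 and 844 with ISO and 557, 586 and 602 with SR-3420. With inhibitors, Pgam1 was at 402, 462 and 389 with Vehicle, 975, 960.4 and 1049 with ISO and 422, 357 and 396 with SR-3420. Both ISO groups stood clear of their Vehicle groups, with rises of 0.71 ± 0.08 (adjusted p 7.37e-08) and 1.25 ± 0.08 (adjusted p 6.75e-12) and an interaction of 0.55 ± 0.11 (adjusted p 3.93e-04).

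Without inhibitors, Eno1, enolase 1, was at 166, 167 and 204 CPM with Vehicle, 234, 168 and 278 with ISO and 209, 188 and 208 with SR-3420. With inhibitors, Eno1 was at 165, 168 and 155 with Vehicle, 289.9, 270.5 and 311 with ISO and 158, 155 and 187 with SR-3420. ISO samples overlapped Vehicle samples without inhibitors and not with them. It rose by 0.34 ± 0.12 with ISO (adjusted p 0.0254; 0.04 and adjusted p 0.825 on total counts) and by 0.84 ± 0.12 with ISO and inhibitors (adjusted p 5.26e-06). The first call was also lost without Vehicle replicate 1 or 2 or ISO replicate 1 or 3 (0.17 to 0.32, adjusted p 0.0725 to 0.233). The interaction, 0.50 ± 0.17 (adjusted p 0.033), was lost without Lipase Inh. + Vehicle replicate 1 or 3 or Lipase Inh. + ISO replicate 1 or 3 or ISO replicate 2 or Vehicle replicate 3 (0.33 to 0.51, adjusted p 0.0515 to 0.0827). The counted length of Eno1 in the table is 127 bp, so its level per length is not comparable with that of other genes. Pgk1 was at 478 ± 96.1 CPM with Vehicle, 676 ± 29.3 with ISO and 679.6 ± 104 with Lipase Inh. + ISO, and rose by 0.50 ± 0.14 (adjusted p 0.00441; 0.279 on total counts) and 0.82 ± 0.14 (adjusted p 3.11e-05). Eno2 and Eno3, the enolases of neurons and muscle, were at 1.87 to 3.57 and 3.46 to 5.32 CPM as group means. Eno2 fell with ISO and inhibitors (-0.75 ± 0.28, adjusted p 0.0266), a call lost without any 1 of 4 samples (-0.61 to -0.74, adjusted p 0.0585 to 0.101), replicates 1 and 2 of Lipase Inh. + Vehicle and 1 and 3 of Lipase Inh. + ISO, and Eno3 passed no test.

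Of the genes for lactate and its transport, Slc16a3 had the largest log2 fold change of the 38 with ISO, with and without inhibitors. It encodes MCT4, the exporter of lactate in glycolytic cells, and Slc16a1 encodes MCT1. Without inhibitors, Slc16a3 (chr11:120809798-120820314) was at 12.6, 11.8 and 13.2 CPM with Vehicle, 46.4, 51.7 and 40.9 with ISO and 24.7, 27 and 23.7 with SR-3420. With inhibitors, Slc16a3 was at 6.49, 7.74 and 6.13 with Vehicle, 55.4, 64.7 and 65.4 with ISO and 7.30, 7.99 and 5.98 with SR-3420. The Lipase Inh. + Vehicle samples lay below all Vehicle samples, and the Lipase Inh. + ISO samples above all ISO samples. Slc16a3 rose with ISO by 1.89 ± 0.11 (adjusted p 9.59e-12) and with inhibitors by 3.20 ± 0.12 (adjusted p 3.06e-15), an interaction of 1.31 ± 0.17 (adjusted p 2.53e-06). The interaction was made up of the lower level with the inhibitors by themselves (-0.89 ± 0.13, adjusted p 4.47e-04) and the higher level with Lipase Inh. + ISO than with ISO (0.42 ± 0.10, adjusted p 0.00198). With SR-3420 it rose by 1.00 ± 0.11 (adjusted p 2.80e-07), while with inhibitors the value was 0.02 ± 0.15 (95% interval -0.30 to 0.33).

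Without inhibitors, Slc16a1 (chr3:104442587-104462385) was at 329.6, 313 and 289 CPM with Vehicle, 855, 1049.6 and 758 with ISO and 686, 744 and 636 with SR-3420. With inhibitors, Slc16a1 was at 287, 317 and 278 with Vehicle, 871, 899 and 805 with ISO and 362, 409 and 359.6 with SR-3420. The Lipase Inh. + ISO samples lay within the range of the ISO samples. The rise was 1.51 ± 0.10 with ISO (adjusted p 2.67e-11) and 1.55 ± 0.10 with ISO and inhibitors (adjusted p 1.19e-11), with an interaction of 0.03 ± 0.13 (95% interval -0.25 to 0.31). With SR-3420 it rose by 1.15 ± 0.10 (adjusted p 2.86e-09) and with inhibitors by 0.35 ± 0.10 (adjusted p 0.0361), the latter call being lost on total counts (adjusted p 0.215), and the interaction was -0.79 ± 0.14 (adjusted p 1.51e-04).

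Without inhibitors, Ldha, the lactate dehydrogenase subunit that favours lactate, was at 966, 768 and 856 CPM with Vehicle, 1409, 1508 and 1429.9 with ISO and 951, 927 and 992 with SR-3420. With inhibitors, Ldha was at 631, 651 and 620.4 with Vehicle, 1633, 1503 and 1758 with ISO and 670.3, 553 and 751 with SR-3420. ISO samples lay above all samples without ISO. It rose by 0.75 ± 0.09 (adjusted p 6.11e-07) and with inhibitors by 1.36 ± 0.09 (adjusted p 5.18e-11), with an interaction of 0.62 ± 0.13 (adjusted p 8.93e-04), and the value with SR-3420 was 0.15 ± 0.09 (adjusted p 0.189).

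Without inhibitors, Ldhb, the subunit of heart that favours pyruvate, was at 58.3, 53.5 and 53 CPM with Vehicle, 55.7, 68 and 58.6 with ISO and 41.5, 47.5 and 38.2 with SR-3420. With inhibitors, Ldhb was at 45.1, 54.3 and 43.2 with Vehicle, 103, 94.5 and 90.9 with ISO and 45.8, 45.6 and 45.9 with SR-3420. SR-3420 samples lay below Vehicle samples, and Lipase Inh. + ISO samples above the other 15. Ldhb fell with SR-3420 (-0.38 ± 0.10, adjusted p 0.00246) and rose with ISO and inhibitors by 1.02 ± 0.09 (adjusted p 6.74e-09), while ISO without them gave 0.14 ± 0.10 (adjusted p 0.219). Per length, the ratio of Ldha to Ldhb was 12.5 ± 0.925 with Vehicle, 19 ± 1.27 with ISO, 18.1 ± 2.58 with SR-3420 and 13.5 ± 1.58 with Lipase Inh. + ISO (SD, n = 3).

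**Figure D4:**
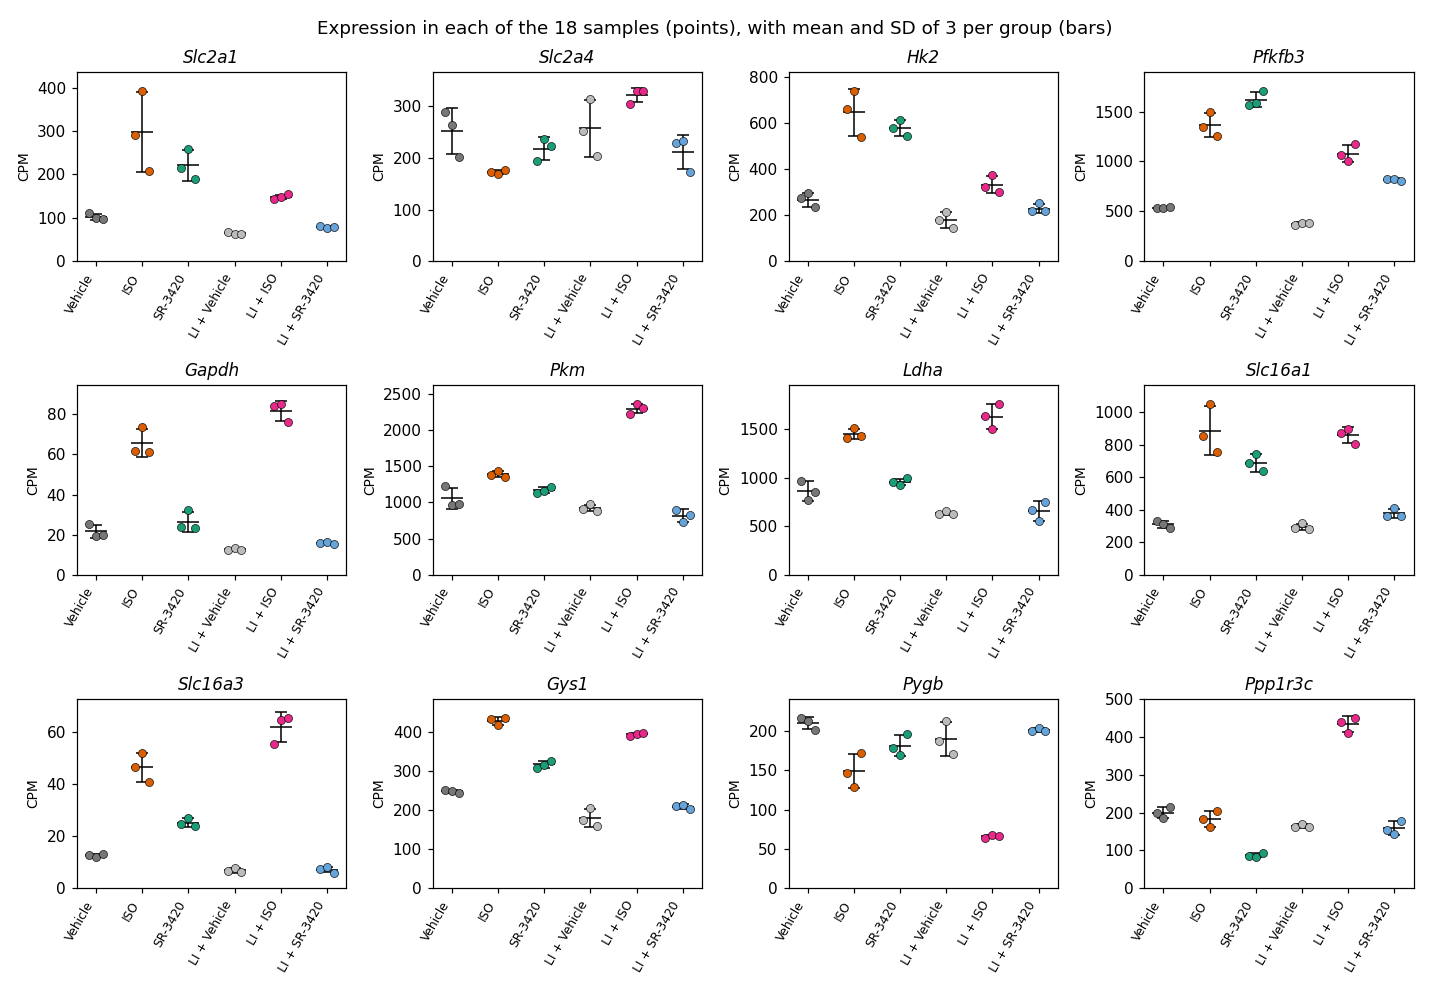
CPM (y axis, from 0) of 12 of the genes in each of the 18 samples (points) by group (x axis; LI, lipase inhibitors), with the mean and SD of 3 samples as black bars. Slc2a1 and Hk2 had their highest mean with ISO, Pkm and Ppp1r3c with Lipase Inh. + ISO and Pfkfb3 with SR-3420, while Pygb had its lowest with Lipase Inh. + ISO.

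The 3 genes tested of pyruvate dehydrogenase, which turns pyruvate into acetyl-CoA, rose a little with ISO in both settings (26.8% and 29.4% of all genes). On total counts none of the 3 passed the test without inhibitors, where Pdha1 turned to -0.07, and 2 of the 3 rose with inhibitors. Without inhibitors, Pdha1 was at 806, 785 and 774 CPM with Vehicle, 906, 922 and 954 with ISO and 722, 699.7 and 709 with SR-3420. With inhibitors, Pdha1 was at 806, 803 and 791 with Vehicle, 1123, 1076 and 1107 with ISO and 768, 752 and 754 with SR-3420. Replicates were close, and ISO samples lay above, and SR-3420 samples below, all Vehicle samples. Pdha1 rose by 0.23 ± 0.05 with ISO (adjusted p 6.70e-04) and by 0.46 ± 0.05 with ISO and inhibitors (adjusted p 1.11e-07), and fell with SR-3420 (-0.15 ± 0.05, adjusted p 0.0184), a call lost without Vehicle replicate 1 or SR-3420 replicate 2 or 3 (-0.13 to -0.15, adjusted p 0.0523 to 0.0613). Map3k15 overlaps Pdha1 on the other strand. Pdhb and Dlat rose with ISO by 0.38 ± 0.07 (adjusted p 4.01e-05) and 0.31 ± 0.06 (adjusted p 2.88e-04), from 298 ± 15.3 to 389 ± 12.5 and from 354 ± 8.58 to 438 ± 25.2 CPM, and with ISO and inhibitors by 0.48 ± 0.07 (adjusted p 1.61e-06) and 0.30 ± 0.06 (adjusted p 2.56e-04). With SR-3420 they gave 0.03 ± 0.07 (adjusted p 0.759) and -0.13 ± 0.06 (adjusted p 0.0871).

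Of the 8 glycogen genes, 6 rose and 1 fell with ISO, beside 26.8% and 25% of all genes. With ISO and inhibitors 5 rose (Pgm1, Ugp2, Gys1, Gbe1 and Ppp1r3c) and 2 fell (Pgm2 and Pygb), beside 29.4% and 28.3%. Without inhibitors, Gys1, the glycogen synthase of tissues other than liver, was at 251, 249 and 244 CPM with Vehicle, 433, 417 and 436 with ISO and 309, 316 and 325 with SR-3420. With inhibitors, Gys1 was at 174, 205 and 159 with Vehicle, 389.6, 394 and 398 with ISO and 211, 213 and 202 with SR-3420. Vehicle, ISO and SR-3420 samples did not overlap one another. It rose with ISO by 0.79 ± 0.07 (adjusted p 4.61e-09), with inhibitors by 1.14 ± 0.07 (adjusted p 1.02e-11) and with SR-3420 by 0.35 ± 0.07 (adjusted p 2.51e-04; 0.065 on total counts).

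Without inhibitors, Pygb, the brain form of glycogen phosphorylase, was at 217, 213 and 202 CPM with Vehicle, 147, 129 and 173 with ISO and 179, 169 and 196 with SR-3420. With inhibitors, Pygb was at 187, 213 and 170.5 with Vehicle, 64.1, 68 and 66.1 with ISO and 199.7, 204 and 199.9 with SR-3420. The Lipase Inh. + ISO samples lay below the other 15. Pygb fell with ISO (-0.50 ± 0.09, adjusted p 6.66e-05) and with ISO and inhibitors (-1.52 ± 0.09, adjusted p 5.89e-12), and the interaction was -1.03 ± 0.13 (adjusted p 1.79e-06).

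Without inhibitors, Pygl, the liver form of the phosphorylase, was at 2.59, 3.09 and 2.03 CPM with Vehicle, 6.04, 5.88 and 5.78 with ISO and 2.06, 3.58 and 2.94 with SR-3420. With inhibitors, Pygl was at 2.33, 2.22 and 2.48 with Vehicle, 4.50, 2.75 and 4.31 with ISO and 1.98, 5.86 and 1.40 with SR-3420. It was low throughout, and the highest value among the groups with SR-3420 was that of the library with few counts. It rose with ISO by 1.19 ± 0.30 (adjusted p 0.00214), and the value with ISO and inhibitors was 0.72 ± 0.31 (adjusted p 0.0513). It was higher with ISO than with SR-3420 (1.05 ± 0.29, adjusted p 0.00984), which did not pass the test without SR-3420 replicate 1 (0.87, adjusted p 0.0563).

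Ppp1r3c (chr19:36806221-36811094) encodes PTG, a subunit that brings protein phosphatase 1 to glycogen and favours its synthesis. Without inhibitors, Ppp1r3c was at 198, 185 and 216 CPM with Vehicle, 183, 162 and 205 with ISO and 86, 81.9 and 92.9 with SR-3420. With inhibitors, Ppp1r3c was at 161, 170.4 and 161 with Vehicle, 439.7, 410.0 and 451 with ISO and 154, 144 and 179 with SR-3420. The SR-3420 samples lay below the other 15 and the Lipase Inh. + ISO samples above the other 15. Ppp1r3c fell with SR-3420 (-1.20 ± 0.09, adjusted p 3.71e-10), and with inhibitors the value was -0.04 ± 0.09 (95% interval -0.22 to 0.14), an interaction of 1.16 ± 0.12 (adjusted p 5.79e-07). With ISO the value was -0.12 ± 0.09 (adjusted p 0.235; -0.43 and adjusted p 0.00131 on total counts), but with inhibitors it rose by 1.40 ± 0.09 (adjusted p 8.70e-12), an interaction of 1.52 ± 0.12 (adjusted p 3.22e-09).

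The genes listed as phosphoglucomutases differed from each other. As a family these enzymes link glucose 6-phosphate and glycogen, and what each of them does in these cells was not tested. The table's Pgm1 and Pgm2 follow an older naming, and newer RefSeq names are exchanged between them. Without inhibitors, Pgm2 was at 258, 251 and 259 CPM with Vehicle, 319, 326 and 304 with ISO and 257, 262 and 258 with SR-3420. With inhibitors, Pgm2 was at 207, 211 and 193 with Vehicle, 185, 175 and 185 with ISO and 223, 206 and 225 with SR-3420. ISO samples lay above all Vehicle samples, and with inhibitors below them. It rose with ISO by 0.31 ± 0.06 (adjusted p 1.10e-04; -0.00 and adjusted p 0.998 on total counts) and fell with ISO and inhibitors (-0.17 ± 0.06, adjusted p 0.0159), a call lost without Lipase Inh. + Vehicle replicate 1 or 2 or Lipase Inh. + ISO replicate 2 (-0.14 to -0.15, adjusted p 0.0618 to 0.0757).

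Without inhibitors, Pgm1 was at 9.48, 7.96 and 9.00 CPM with Vehicle, 16, 19.2 and 16 with ISO and 13.2, 11.9 and 12.8 with SR-3420. With inhibitors, Pgm1 was at 8.02, 9.39 and 9.19 with Vehicle, 20.3, 21.1 and 20.3 with ISO and 7.48, 6.66 and 10.3 with SR-3420. It was much less abundant than Pgm2 by CPM, its ISO and SR-3420 samples lay above Vehicle samples, and both stimuli raised it, ISO by 0.95 ± 0.13 (adjusted p 3.01e-06) and SR-3420 by 0.51 ± 0.13 (adjusted p 0.00274). Ugp2, which makes UDP-glucose, and Gbe1, the branching enzyme, rose with ISO by 0.83 ± 0.07 (adjusted p 1.24e-09) and 0.55 ± 0.10 (adjusted p 5.17e-05; 0.0648 on total counts). Their means went from 90.8 ± 3.91 to 161 ± 6.04 and from 106 ± 8.94 to 155 ± 17.1 CPM. Ugp2 overlaps Vps54 on the other strand.

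The other genes of the pathways were read from lists of related genes. Of 29 other glucose and glycolysis genes tested, 8 rose and 8 fell with ISO, and of 25 other glycogen genes 7 rose and 5 fell, both near the 26.8% and 25% of all genes. Pck1, the PEPCK of gluconeogenesis and glyceroneogenesis, rose from 123 ± 15.5 to 2228 ± 366 CPM with ISO (4.18 ± 0.19, adjusted p 1.43e-13) and to 1049.6 ± 188 with SR-3420 (3.10 ± 0.19, adjusted p 1.54e-11), and its rise with ISO was smaller with inhibitors (-2.42 ± 0.25, adjusted p 1.34e-07). Txnip, an arrestin-like protein that limits glucose uptake, rose with SR-3420 by 1.75 ± 0.09 (adjusted p 2.77e-12) and with ISO by 0.73 ± 0.09 (adjusted p 8.94e-07), but fell with ISO and inhibitors (-0.68 ± 0.09, adjusted p 1.66e-06). Emb, a partner protein of monocarboxylate transporters, rose with ISO by 0.96 ± 0.22 (adjusted p 8.62e-04) and with inhibitors by 3.37 ± 0.19 (adjusted p 2.96e-12), from 5.13 ± 1.68 to 54.3 ± 4.44 CPM. Bpgm, which makes 2,3-bisphosphoglycerate, fell with ISO (-0.39 ± 0.15, adjusted p 0.0329) and rose with ISO and inhibitors by 1.37 ± 0.14 (adjusted p 2.52e-08).

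Among the other glycogen genes, Pgm2l1, which makes glucose 1,6-bisphosphate, fell with ISO (-1.40 ± 0.13, adjusted p 1.09e-08) and with SR-3420 (-1.23 ± 0.13, adjusted p 6.45e-08). Gys2, the synthase of liver, rose with ISO (2.11 ± 0.44, adjusted p 3.16e-04) but only to 2.28 ± 0.0773 CPM. Stbd1, which tethers glycogen to membranes, rose with SR-3420 (1.18 ± 0.18, adjusted p 1.03e-05) and fell with ISO and inhibitors (-0.84 ± 0.19, adjusted p 7.83e-04). Epm2a, the glycogen phosphatase laforin, fell with ISO and inhibitors (-1.97 ± 0.30, adjusted p 8.72e-06), to 0.998 ± 0.274 CPM.

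Of 10 genes of the pentose phosphate pathway, 1 rose and 2 fell with ISO (26.8% and 25% of all genes) and 5 fell with SR-3420 (25.4%). Pgls, its lactonase, had a positive interaction of SR-3420 with the inhibitors (1.02 ± 0.30, adjusted p 0.0135). Of 19 genes for hexosamines and UDP-sugars, 5 rose and 3 fell with ISO, beside 26.8% and 25% of all genes, and 9 rose and 3 fell with ISO and inhibitors, beside 29.4% and 28.3% of all genes. Ugdh, which oxidises UDP-glucose, rose from 98.5 ± 5.13 to 634 ± 133 CPM with ISO (2.69 ± 0.11, adjusted p 1.83e-14) and to 1218 ± 113 with inhibitors. Gfpt2, an enzyme of the first step of the hexosamine pathway, rose by 2.33 ± 0.20 with ISO (adjusted p 1.91e-09) and by 4.80 ± 0.18 with ISO and inhibitors (adjusted p 2.27e-15). Uap1, its last step, rose by 2.26 ± 0.12 (adjusted p 1.07e-12) and 4.48 ± 0.13 (adjusted p 2.69e-17), with an interaction of 2.22 ± 0.16 (adjusted p 9.57e-10). Nagk, the kinase of N-acetylglucosamine, fell with SR-3420 (-1.03 ± 0.15, adjusted p 9.91e-06) and with ISO (-0.95 ± 0.16, adjusted p 2.83e-05).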

How the data were processed

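RNA-seq libraries of 18 samples in 6 groups of 3 were analysed. Per the labels and methods, the authors aligned TruSeq reads to mm9 with STAR 2.4.2a, kept 1 read per position and length with HOMER, and deposited raw read counts per gene from iRNA-seq. Strand use and the treatment of multimapping reads were not given in the sources used here. The cap on reads per position may compress the levels of abundant genes, which was not tested. From these counts, genes were kept with filterByExpr (minimum count 10, minimum total 15), scaled by TMM, and fitted in 1 model of 6 groups with the quasi-likelihood test of edgeR 4.0.16 in R 4.3.3, with Benjamini-Hochberg adjustment over 12156 genes. A gene was called at an adjusted p of at most 0.05. In simulated data of 12030 genes for ISO against Vehicle, 190 of 200 genes changed 3-fold were recovered and 7 others were called. No other genes were changed there, whereas in the data 26.8% rose and 25% fell. The simulation therefore cannot speak to the dependence on scaling or to smaller changes.

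The members and lists were chosen with earlier results of these data known. Members are named with every sample's value if past a log2 fold change of 1 in a planned comparison, or if highest per length in their role. RPKM were computed from the table's gene lengths. Copies were searched with BLAST 2.17.0 in mm9. Alternatives were DESeq2 1.42.0, RLE factors, total counts, no filter or a stricter one, only the groups compared, a replicate block, and leaving out each sample.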

Additional observations from a re-analysis of the deposited data

Results flagged for a closer look

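For 6 effects past a log2 difference of 1, the response with the lipase inhibitors differed from that without them by the test of the interaction. The difference for ISO was -1.64 for Slc2a3 (adjusted p 6.94e-04), -1.03 for Pygb (adjusted p 1.79e-06), 1.1 for Gapdh (adjusted p 3.13e-05), 1.31 for Slc16a3 (adjusted p 2.53e-06) and 1.52 for Ppp1r3c (adjusted p 3.22e-09). For SR-3420 the difference was 1.16 for Ppp1r3c (adjusted p 5.79e-07). In Slc2a3 the Lipase Inh. + ISO samples held 1.19 to 2.25 CPM. Gapdh is among the genes whose transcript has near-identical copies elsewhere in the genome.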

How the results depend on the processing

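On total counts in place of TMM factors, 14 of the 38 genes rose and 8 fell with ISO, 6 were lower with the inhibitors by themselves, 1 rose with SR-3420 and inhibitors, and 13 were higher and 6 lower with ISO than with SR-3420. The summed CPM of the genes was then 11384 with Vehicle, 13785 with ISO, 9392 with Lipase Inh. + Vehicle and 15348 with Lipase Inh. + ISO. With ISO, Pdha1 went to -0.0731 and Pgm2 to -0.000237 on the log2 scale, neither past the test. This scaling leaves out the correction for composition that TMM makes. Fitted on only the groups compared, 5 genes were lower with the inhibitors by themselves and 5 lower with ISO than with SR-3420. Single gene results numbered 250, from the 25 genes given with every sample's value in 8 planned and 2 added comparisons. Of these genes 20 were taken for changes past a log2 fold change of 1, and the 13 other genes are not included. DESeq2 gave the same call in 247, RLE factors in 249 and no filter in 241. The stricter filter gave it in 249, only the groups compared in 233 and total counts in 222. Direction was compared only for results called in 1 or both settings, where Pdha1 and Pgm2 with ISO on total counts changed it.

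With the replicate number as a block, 4 genes rose with SR-3420 and inhibitors and 5 were lower with ISO than with SR-3420. Of the 250 gene results 238 kept their call, 12 were called only with the block and 0 only without it. Deviations of samples with number 1, 2 and 3 correlated at -0.0118, 0.15 and 0.19 on average. The ranges were -0.114 to 0.166, 0.0745 to 0.249 and 0.114 to 0.28, and 12 of 18 samples correlated best with their own number. Whether the numbers pair the samples was not settled, and the cause of the changes with the block was not tested.

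With each sample left out in turn, the genes that rose and fell numbered 24 to 25 and 4 to 5 with ISO, 11 to 15 and 4 to 7 with SR-3420, 0 and 5 to 11 with the inhibitors by themselves, and 26 to 27 and 4 to 6 with ISO and inhibitors. They numbered 1 to 4 and 0 with SR-3420 and inhibitors, and 17 to 22 and 0 to 4 for ISO against SR-3420. For the interactions they were 12 to 15 and 3 to 5 for ISO and 2 to 5 and 7 to 11 for SR-3420. For the added comparisons they were 10 to 12 and 6 to 8 for Lipase Inh. + ISO and 2 to 4 and 19 to 22 for Lipase Inh. + SR-3420. The 250 results of the 25 genes given with every sample's value had 1800 such fits, of which 124 had another call. Among results called with or without the sample, 0 had another direction. Results called in neither fit were not compared for direction. Genes of a few CPM, such as Pygl, Aldoc, Eno2 and Eno3, rest on few counts in the library with 4263755.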
